A study of Mus musculus with 64 samples.

Results

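The transcriptome of the wild-type (WT) mouse hippocampus was compared between postnatal week (PWK) 1 and PWK 7, over all genes of the table. The region, genotype and age given in the labels chose the libraries, 4 at PWK 1 and 4 at PWK 7, which make up 8 of the 64 libraries of the series. No measured value entered this choice. The mice were of the C57BL/6N strain, and the WT animals were littermates of mice with the Arg87Cys change in 1 copy of *Cyfip2* (knock-in or KI), which were made as a model of West syndrome, an epilepsy of infancy. The WT animals carried no edited allele and no transgene, and the labels name no treatment. The study used mice of both sexes. *Ddx3y*, of the Y chromosome, was at 1033 to 1557 normalized counts in the 8 libraries compared, as in males. WT frontal cortex and KI hippocampus of the same ages (4 libraries per age) were used to ask where this age effect differed by region or genotype, and WT hippocampus of PWK 14 and PWK 28 (4 libraries per age) to follow single genes. Levels are given as normalized counts, scaled by the authors over all libraries. They are not divided by gene length, so they are compared between ages and never between genes.

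Between these ages the rodent hippocampus passes from a growing to a mature circuit. Production of most neurons is complete except in the dentate gyrus, where granule cells are still added. Axons and dendrites extend and synapses form, oligodendrocytes begin to wrap axons in myelin, and receptor and ion channel subunits of the young brain are exchanged for adult ones. Bulk tissue mixes all of these cells, so fewer cells of a type and less RNA per cell cannot be told apart in any value below.

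Age changed most of the transcriptome. In limma's test at an adjusted p under 0.05, 11284 of 18405 genes (61.3%) were differentially expressed genes (DEGs), of which 5684 were higher (30.9% of the genes tested) and 5600 lower (30.4%) at PWK 7. The median log2 fold change over all genes was 0.01, and the median absolute value was 0.40. With a change of at least 2-fold as a further condition, 3130 genes remained (17%), 1548 of them higher (8.41%) and 1582 lower (8.6%), and 758 genes had changed at least 4-fold. The lowest and highest libraries of both ages did not overlap for 10362 genes (56.3%). With so many DEGs, the counts of each gene list below are to be read against these shares and this median. When each library was scaled to the same total (total-sum scaling), 5063 genes were higher and 6237 lower, with a median of -0.04. The balance of the directions thus depends on the scaling. The 37 lists cover cell types and pathways of the developing brain.

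Libraries of the same age resembled each other more than those of different ages. Over the 12819 genes with a mean of at least 100 normalized counts, correlations of log2 values lay between 0.992 and 0.994 within PWK 1, between 0.983 and 0.993 within PWK 7, and between 0.904 and 0.922 across the ages. The first principal component held 84.4% of the variance and separated the ages. Marker genes of neighbouring tissue differed between libraries. The summed choroid plexus markers ranged from 11584 to 40962 normalized counts at PWK 1 and from 1714 to 101224 at PWK 7. *Ttr*, the transthyretin gene and main product of the choroid plexus, was at 25669, 38004, 31865 and 10473 normalized counts at PWK 1 and 80928, 31323, 593 and 87362 at PWK 7, so that replicate 3 of PWK 7 stood far below the other libraries of that age. The ages overlapped and *Ttr* was not called. Of the 9 markers 2 rose and none fell. The risers were *Kl*, the klotho gene, at 534, 616, 596 and 278 normalized counts at PWK 1 and 5707, 2625, 711 and 6128 at PWK 7, and *Prlr*, the prolactin receptor, at 99.8, 89.2, 139 and 104 normalized counts at PWK 1 and 1631, 611, 165 and 2002 at PWK 7. Both were low in replicate 3 as well. The summed meningeal markers ranged from 13093 to 19589 at PWK 1 but from 5901 to 9883 at PWK 7. Cerebellar markers, 5 of the 7 listed being measured, were in the ranges 1211 to 1524 and 208 to 397. The most abundant of them had higher means in frontal cortex at both ages, so their sum does not single out cerebellum. Blood cell markers were in the ranges 7714 to 27017 and 3689 to 6098. Hippocampal excitatory neuron markers had sums of 53316 to 57271 and 65757 to 74280, and 5 of the 8 rose and 2 fell. The most abundant of them had means of 26751 and 38731 in hippocampus at PWK 1 and 7, and of 25604 and 43299 in cortex. Their sum thus does not single out hippocampus. All 8 hippocampal markers were detected at both ages. All 8 neocortical markers were detected as well, so detection alone does not tell the regions apart. With the log2 choroid plexus sum as a covariate, 3118 of the 3130 DEGs of at least 2-fold were still called. The sums of the ages overlapped, with the lowest and the highest both at PWK 7, so this fit could shift the age effect little. The part of choroid plexus in the age effect was not tested.

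**Figure D1:**
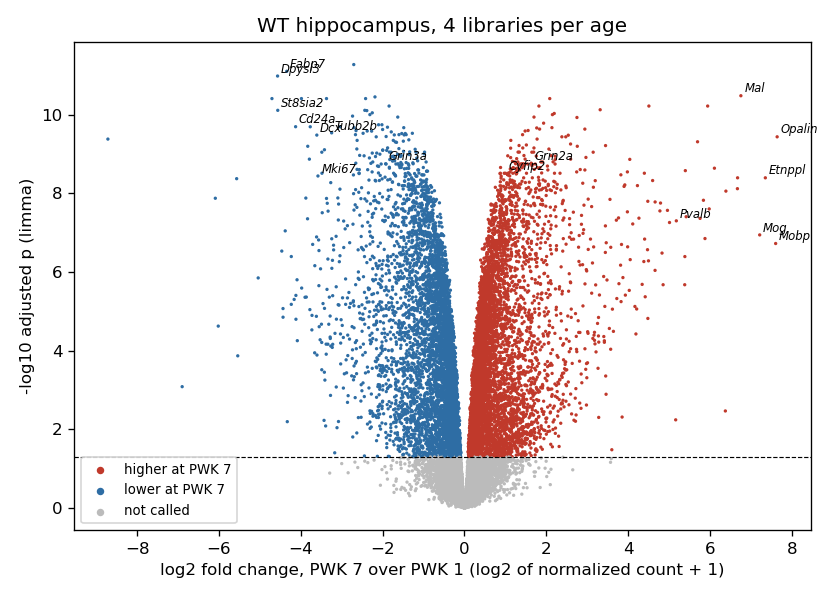
Each point is 1 of the 18405 genes tested, placed by its log2 fold change between PWK 7 and PWK 1 in WT hippocampus (horizontal axis) and by the negative log10 of its adjusted p in limma's test (vertical axis). The 5684 DEGs that were higher at PWK 7 are red, the 5600 that were lower are blue and the others grey, and the named genes with the largest rises lie out to 7.64 on the right.

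Myelin genes had the highest median of the 37 lists. All 26 genes of the myelin list rose and none fell, with a median log2 fold change of 3.81 and a range from 0.49 to 7.64. Of the 10 protein-coding genes with the largest rises in the table, *Opalin*, *Mobp*, *Mog*, *Mal*, *Ermn* and *Hapln2* were on this list. *Mobp* (chromosome 9, 120149707 to 120181484, plus strand), which encodes a structural protein of the myelin sheath, was at 281, 70.9, 311 and 48.5 normalized counts at PWK 1 and 27250.2, 22915, 26249 and 27531 at PWK 7 (log2 fold change 7.61, SE 0.51, limma, adjusted p = 1.88e-07). The highest library of PWK 1 was far below the lowest of PWK 7, and the PWK 1 libraries fell into a higher pair (replicates 1 and 3) and a lower pair (replicates 2 and 4). *Mog*, a protein of the outermost myelin layer, showed the same pairs, with 24.4, 4.54, 23.5 and 5.93 normalized counts at PWK 1 and 1990.1, 1447, 2005 and 2019 at PWK 7 (log2 fold change 7.22, SE 0.45, limma, adjusted p = 1.14e-07). *Opalin*, a membrane protein of mature oligodendrocytes, was almost absent at PWK 1, with 1.92, 4.34, 2.89 and 1.94 normalized counts, and reached 712, 633, 759 and 828 at PWK 7. *Mbp*, which encodes myelin basic protein, was already transcribed at PWK 1, with 3641 ± 1418 normalized counts at PWK 1 and 86945 ± 8825 at PWK 7 (SD, n = 4, as for every ± below), a log2 fold change of 4.66. The least changed member, *Ndrg1*, rose by 0.49 on the log2 scale.

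Of 18 genes of oligodendrocyte precursors and of their differentiation, 7 rose and 8 fell. Among those that rose were *Nkx6-2* (log2 fold change 6.68), *Myrf*, the transcription factor that switches on myelin genes (2.91), and *Bcas1* (1.88), a gene of oligodendrocytes that begin to myelinate. *Myrf* was at 319.8, 288, 397 and 189 normalized counts at PWK 1 and 2306, 2053, 2094 and 2267 at PWK 7. Among those that fell were *Pdgfra*, the receptor that drives precursor division (-1.12), *Gpr17* (-1.27) and *Sox6* (-1.05). *Pdgfra* was at 4953, 4795, 5139 and 5150.2 normalized counts at PWK 1 and 2288, 2126, 2446 and 2358 at PWK 7, with no overlap between the ages. *Bmp4* was at 110.1 ± 15.6 normalized counts at PWK 1 and 113 ± 43.4 at PWK 7 and was not called.

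Of the 10 largest rises, 3 were genes on none of the lists. *Etnppl*, an enzyme of phospholipid breakdown that astrocytes express, was listed at 0.633, 2.28, 3.49 and 2.58 normalized counts at PWK 1 and 546, 457, 603 and 407 at PWK 7 (log2 fold change 7.35, SE 0.30, limma, adjusted p = 4.02e-09). *Sec14l5*, a lipid transfer protein of the Sec14 family, rose by 6.11 on the log2 scale, from 15.1, 12.9, 12.5 and 6.27 to 913, 737, 779 and 947 normalized counts, and *Tmem125* by 5.40. Each of the 10 largest rises had been chosen for non-overlapping libraries, so the absence of overlap is part of the rule.

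**Figure D2:**
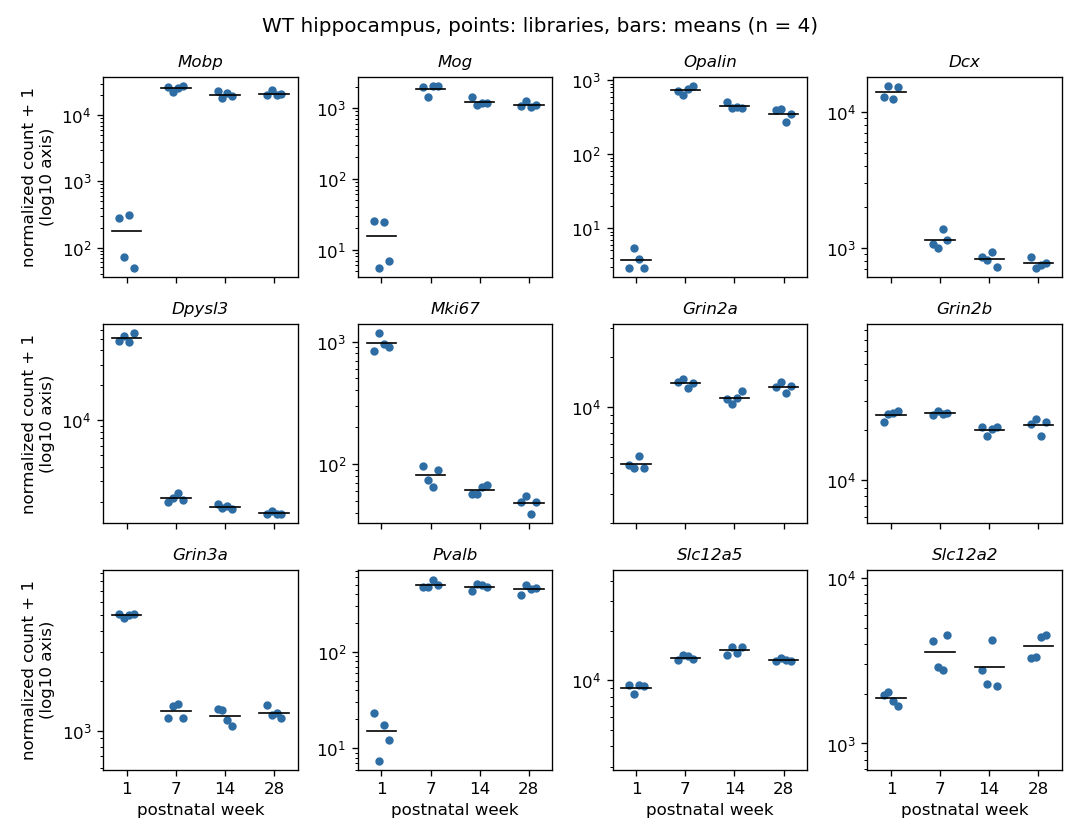
Normalized counts on a log10 axis (value + 1) of 12 genes in WT hippocampus, with 1 point per library (n = 4 per age) and a bar at the mean, at PWK 1, 7, 14 and 28. *Mobp*, *Mog* and *Opalin* climb from PWK 1 to PWK 7, *Dcx*, *Dpysl3* and *Mki67* drop, and *Grin2b* has overlapping libraries at PWK 1 and 7.

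Genes of the dividing cell fell together. Of 33 genes of DNA replication and mitosis, 30 fell and 1 rose, with a median log2 fold change of -1.41, and 20 of them fell at least 2-fold. *Mki67*, the antigen used to mark cycling cells (chromosome 7, 135689784 to 135716361, minus strand), was at 838, 1176, 952 and 899 normalized counts at PWK 1 and 95.3, 72.9, 63.7 and 88.5 at PWK 7 (log2 fold change -3.58, SE 0.14, limma, adjusted p = 3.61e-09). *Top2a*, the topoisomerase that untangles chromosomes, went from 758, 853, 799.8 and 763 to 78, 59.6, 80.2 and 76.1, and *Ube2c*, which loads ubiquitin on cyclins at the end of mitosis, from 118, 119, 101 and 117 to 7.9, 11.5, 8.87 and 9.04. In none of the 3 genes did a library of PWK 7 reach the lowest of PWK 1. The member that rose was *Ccne1*, cyclin E1 (0.76), and *Ccnd1*, cyclin D1, had a log2 fold change of 0.12 and was not called.

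Since these genes moved as a group, the sequence around their start sites was read. The 4 members that fell most among those with 1 promoter in the RefSeq table (GRCm38.p6) are shown, 300 bases around the start site, 5′ to 3′ on the gene's strand. Capitals mark CCAAT or its reverse complement ATTGG, the word bound by the factor NF-Y.
*Mki67*, chr7:135716330-135716629, minus strand: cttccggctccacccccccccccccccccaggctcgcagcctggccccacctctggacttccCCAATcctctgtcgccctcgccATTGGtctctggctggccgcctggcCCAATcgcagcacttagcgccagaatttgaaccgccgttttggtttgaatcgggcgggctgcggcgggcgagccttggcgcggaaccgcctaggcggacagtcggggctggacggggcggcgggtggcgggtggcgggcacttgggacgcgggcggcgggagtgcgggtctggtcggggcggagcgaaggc
*Ube2c*, chr2:164769679-164769978, plus strand: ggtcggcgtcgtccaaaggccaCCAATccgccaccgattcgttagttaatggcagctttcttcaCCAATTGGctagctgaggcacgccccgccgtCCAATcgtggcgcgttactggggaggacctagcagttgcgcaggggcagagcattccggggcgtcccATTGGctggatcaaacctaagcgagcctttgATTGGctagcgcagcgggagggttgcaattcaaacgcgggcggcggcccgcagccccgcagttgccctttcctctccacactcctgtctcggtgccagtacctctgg
*Top2a*, chr11:99024140-99024439, minus strand: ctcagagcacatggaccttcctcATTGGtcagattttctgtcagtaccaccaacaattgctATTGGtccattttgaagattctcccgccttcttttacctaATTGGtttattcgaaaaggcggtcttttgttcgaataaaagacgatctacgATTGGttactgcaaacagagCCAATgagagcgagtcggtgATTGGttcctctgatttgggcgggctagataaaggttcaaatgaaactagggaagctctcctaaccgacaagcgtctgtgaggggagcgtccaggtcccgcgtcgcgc
*Cdk1*, chr10:69352863-69353162, minus strand: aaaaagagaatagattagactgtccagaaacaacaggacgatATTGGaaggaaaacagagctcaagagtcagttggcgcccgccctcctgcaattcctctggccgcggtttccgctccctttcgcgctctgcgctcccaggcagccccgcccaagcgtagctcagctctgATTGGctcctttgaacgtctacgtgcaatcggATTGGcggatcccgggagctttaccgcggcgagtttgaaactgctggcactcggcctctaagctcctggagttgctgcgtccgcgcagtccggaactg
These promoters hold 3, 6, 6 and 3 copies of the word. The stretch CCAATTGG in *Ube2c* is counted on each strand, as copies that share bases. A promoter was listed for 25 of the 33 genes, and 22 of the 25 (88%) hold CCAAT on either strand, against 42.6% of the 11982 protein-coding genes of this comparison with a promoter and 41.1% of all 27025 genes in the RefSeq table. TTTGAA, a form of the cell cycle homology region, is in 12 of the 25 (48%) against 14.4% of the genes of this comparison, and TTTAAA in 9 (36%) against 11.4%. Among forms of the E2F word, TTTGGCGC is in 4 of the 25 (16%) against 1.02% of the genes of this comparison, and TTTCGCGC in 4 against 0.668%. TTTCCCGC is in 2 (8%) against 2.14%, and GGCGGGAA in 1 (4%) against 4.39%. Both strands were read, and some of these words can share bases. TTTCCCGC can overlap the reverse complement of GGCGGGAA, and TTTCGCGC that of TTTGGCGC. A single site can then count for both words, and the counts of these pairs are not independent. The matches describe sequence and were not tested for use.

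Stem cell and radial glia genes fell less evenly, with 12 of 16 lower, 3 higher and a median of -0.57. *Fabp7*, the fatty acid binding protein of radial glia, was at 7750.4, 7925, 7655 and 8685 normalized counts at PWK 1 and 351, 413, 413 and 397 at PWK 7 (log2 fold change -4.34, SE 0.06, limma, adjusted p = 7.84e-12). *Tnc*, tenascin C of the stem cell niche, fell by 3.77 on the log2 scale. *Prom1* (0.41), *Hes1* (0.31) and *Hopx* (0.23) rose, each with overlapping libraries, the call of *Hes1* was lost in several alternative fits, and with all 64 libraries in 1 fit *Prom1* alone was called higher. *Lfng* had a log2 fold change of -0.18 and was not called.

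Immature neuron genes had the lowest median of the 37 lists. Of 28 genes, 26 fell and 1 rose, with a median log2 fold change of -2.13. *Dpysl3* (chromosome 18, 43320984 to 43438286, minus strand), a collapsin response mediator of the growth cone, was at 47524, 53291, 46517 and 56147 normalized counts at PWK 1 and 1984, 2146, 2374 and 2059.7 at PWK 7 (log2 fold change -4.57, SE 0.07, limma, adjusted p = 1.03e-11). *Dcx*, the microtubule protein doublecortin of migrating neurons, was at 12942, 15400.2, 12485 and 15334 normalized counts at PWK 1 and 1067, 1006, 1384 and 1154 at PWK 7 (log2 fold change -3.61, SE 0.10, limma, adjusted p = 3.29e-10). *St8sia2*, which adds polysialic acid to the adhesion molecule NCAM, went from 3424, 3516, 2991 and 3526 to 172, 135, 138 and 123, and *Cd24a*, a surface protein of young neurons, from 5611, 6675, 5462 and 6305 to 391, 279, 335 and 374. For all 4 genes the PWK 7 libraries were far below the PWK 1 libraries. The transcription factor *Sox11* was at 3102 ± 312 normalized counts at PWK 1 and 554 ± 15.3 at PWK 7, a log2 fold change of -2.48. *Neurod2* rose by 0.16 on the log2 scale, a call that was lost in several alternative fits, and *Bcl11b* (-0.11) was not called.

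Genes of Cajal-Retzius cells, the transient neurons of the marginal zone that guide lamination, also fell, in 7 of 8 cases with a median of -1.30. *Reln*, which encodes the secreted guide reelin, was at 7796, 7924, 7521 and 8624 normalized counts at PWK 1 and 2655, 2097, 2832 and 2319 at PWK 7, and later marks interneurons as well. The transcription factors *Lhx1*, from 47.2, 62.9, 85 and 34.2 to 13.9, 24.4, 5.91 and 13, and *Lhx5* (-2.04) fell too, and *Trp73*, a p53 relative, was at 189, 288, 202 and 196 normalized counts at PWK 1 and 186, 145, 94.2 and 209 at PWK 7 and was not called.

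Of the 10 largest falls, 6 were genes on none of the lists. *Prnd*, the doppel gene next to the prion gene, was at 175, 200.3, 185 and 206 normalized counts at PWK 1 and 4.68, 0, 12.6 and 0 at PWK 7 (log2 fold change -6.02, SE 0.72, limma, adjusted p = 2.37e-05). *Aplnr*, the apelin receptor of growing vessels, was at 813, 891, 744 and 764 normalized counts at PWK 1 and 19.8, 18.8, 8.73 and 19.3 at PWK 7 (log2 fold change -5.57, SE 0.23, limma, adjusted p = 4.22e-09). *Trim67*, a ubiquitin ligase of neurons, fell from 4915, 6169, 4803 and 6103 to 209, 191, 225 and 209, *Avpr1a*, the vasopressin 1A receptor, from 162, 206, 154 and 193 to 12.2, 6.86, 4.33 and 8.68, and *Styk1* from 137, 172, 181 and 239 to 16.2, 6.24, 15.7 and 4.96. The first in rank, *Gm14434*, was at 398, 448, 373 and 408 at PWK 1 and listed at 0, 0, 0 and 133 at PWK 7. It belongs to a family of similar zinc finger genes on chromosome 2, among which reads can be split, and its value is uncertain.

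Axon guidance genes mostly fell. Of 39 ligands and receptors, 23 fell and 10 rose, with a median of -0.56. The falls were led by the plexins *Plxnd1* (-1.86) and *Plxna3* (-1.63), receptors of semaphorins, and the ligand *Sema3c* (-1.47). *Plxnd1* was at 3084, 3277, 3358 and 3547 normalized counts at PWK 1 and 873, 780.2, 1213 and 832 at PWK 7. In the other direction *Slit1*, a repellent ligand of Robo receptors, was at 4328, 3838, 4114 and 4579 normalized counts at PWK 1 and 10789, 12496, 9385 and 9987 at PWK 7 (log2 fold change 1.33, SE 0.08, limma, adjusted p = 1.08e-07), and *Unc5b* (0.99) and *Epha7* (0.91) rose with it. *Plxnb1* (-0.01) was not called.

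The cytoskeleton changed by isoform. Of 14 tubulins, 9 fell and 4 rose. The β-tubulin of young neurons *Tubb2b* was at 49039, 53149, 50308 and 59539 normalized counts at PWK 1 and 5448, 6643, 4911 and 5401 at PWK 7 (log2 fold change -3.25, SE 0.09, limma, adjusted p = 2.88e-10), *Tubb3* at 28429 ± 1585 normalized counts at PWK 1 and 6379 ± 533 at PWK 7 (-2.16), and the α-tubulin *Tuba1a* fell by 2.42 on the log2 scale. Near-identical copies (*Tubb2b* with *Tubb2a*, *Tuba1a* with *Tuba1b* and *Tuba1c*) may exchange reads, so their separate values are uncertain. *Tubb4a*, the β-tubulin of oligodendrocytes and mature neurons, rose from 14541, 13918, 15567 and 14810.5 to 20726, 21274, 21575 and 21433, and *Tuba8* (1.56) and *Tuba4a* (0.66) rose with it. The microtubule-associated *Mapt* (tau, -1.24) and *Map1b* (-0.93) fell, whereas *Map1a* rose by 0.62, the exchange known for these proteins. Of 13 neurofilament and axon genes, 7 fell and 3 rose. The heavy chain *Nefh* was at 1286, 1213, 1401 and 1139 normalized counts at PWK 1 and 1209, 1281, 1359.5 and 1359 at PWK 7 and was not called, *Sncg* (γ-synuclein) rose by 1.65 and *Prph* (peripherin) fell by 3.30.

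Matrix genes mostly fell. Of 16 genes of lecticans and perineuronal nets, 10 fell and 4 rose, with a median of -1.05. *Ncan*, the neurocan core protein, was at 28200.5, 29489.8, 27837 and 29153 normalized counts at PWK 1 and 6849, 7858, 6822 and 6826 at PWK 7 (log2 fold change -2.02, SE 0.05, limma, adjusted p = 1.79e-10), and *Has2*, a hyaluronan synthase, fell by 3.27 on the log2 scale. The 4 that rose included the link proteins *Hapln2* of the node of Ranvier (5.70) and *Hapln4* of adult nets. *Hapln4* was at 121, 105, 130.1 and 97.5 normalized counts at PWK 1 and 2543, 2799, 2423 and 2590.0 at PWK 7 (log2 fold change 4.51, SE 0.09, limma, adjusted p = 6e-11). *Adamts4*, an aggrecanase, rose by 2.48, and the brevican gene *Bcan* (0.08) was not called. Of 18 collagens, 15 fell and 1 rose, with a median of -0.99. *Col3a1* was at 1773, 3617, 2518 and 2432 normalized counts at PWK 1 and 119.8, 206, 181 and 206 at PWK 7, and *Col1a1* (-2.21) and *Col1a2* (-2.16) fell with it, while *Col25a1*, a membrane collagen of neurons, rose by 1.02. Meningeal markers, among them *Col1a1* and *Col1a2*, were lower at PWK 7 in 5 of 9 cases, as were their sums given above, and their part in the collagen values was not tested.

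**Figure D3:**
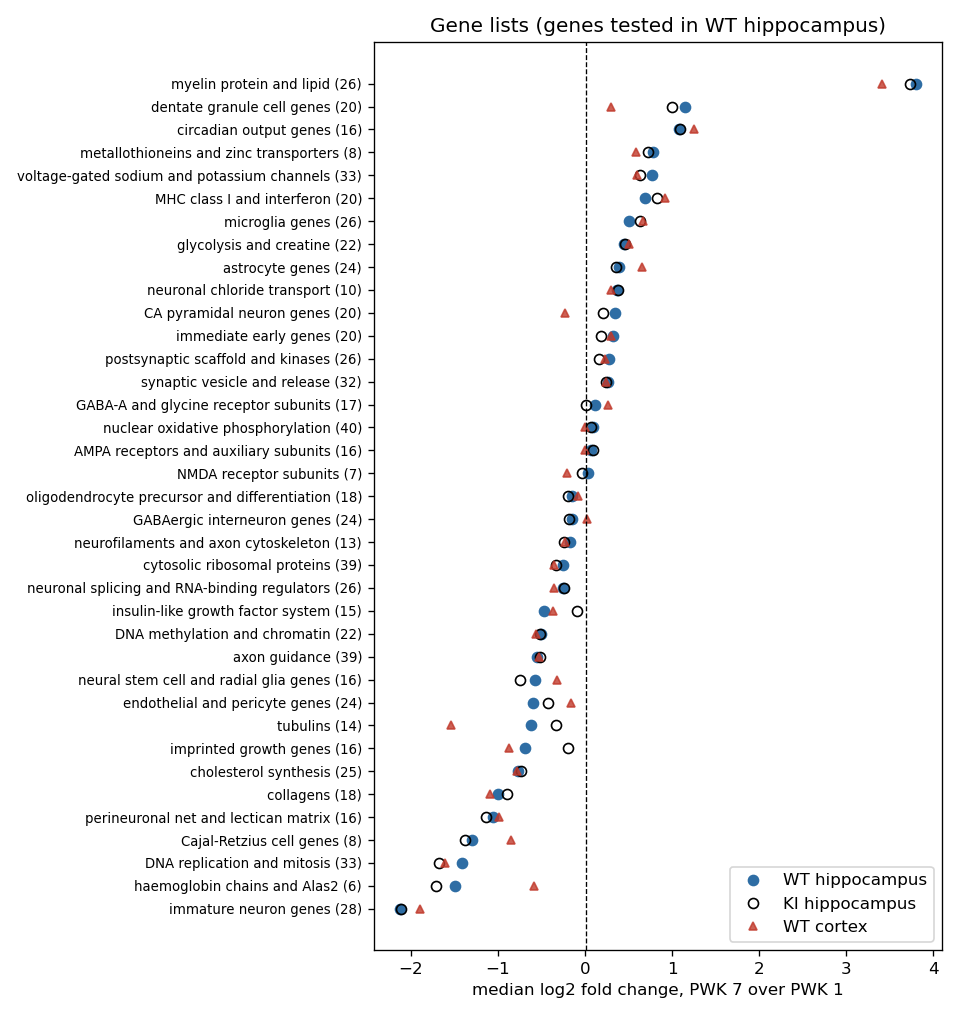
Median log2 fold change between PWK 7 and PWK 1 of each of 37 gene lists (rows) in WT hippocampus (filled circles), KI hippocampus (open circles) and WT cortex (triangles), ordered by the WT hippocampal value. Myelin genes lie at the top with 3.81 and immature neuron genes at the bottom with -2.13, and the dashed line marks the median of all genes tested in WT hippocampus, 0.01.

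NMDA receptors changed by subunit. These glutamate-gated channels need *Grin1* together with a *Grin2* or *Grin3* subunit, and GluN2B and GluN3A are known as subunits of the young brain. *Grin2a* was at 4470.2, 4286, 5042 and 4284 normalized counts at PWK 1 and 14196, 14692, 13025 and 13959.5 at PWK 7 (log2 fold change 1.63, SE 0.06, limma, adjusted p = 1.7e-09), without overlap. *Grin2b* was at 22443, 24949.5, 25301 and 25935 normalized counts at PWK 1 and 24666, 25948, 24977 and 25449 at PWK 7, groups that overlapped and did not pass the test (log2 fold change 0.04, adjusted p = 0.514 in limma's test). *Grin3a* was at 5056, 4789, 5019 and 5030.4 normalized counts at PWK 1 and 1191, 1418, 1451 and 1189 at PWK 7 (log2 fold change -1.93, SE 0.07, limma, adjusted p = 1.76e-09), and *Grin2d*, a subunit of interneurons and early neurons, fell by 1.76 on the log2 scale. *Grin1* rose by 0.59 and *Grin2c* by 1.51, and *Grin3b* (-0.33) was not called.

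AMPA receptors and their partners split evenly, with 8 of 16 higher, 7 lower and a median of 0.07. *Gria1* (0.71) and *Gria3* (0.97) rose, as did *Nrn1*, neuritin (1.45). Among the auxiliary subunits *Cacng4* fell from 2531, 2612, 2451 and 2860.3 to 734, 582, 613 and 549 normalized counts, and *Shisa6* (-0.61) and *Gsg1l* (-0.60) fell as well. *Shisa9* (-0.05) was not called.

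Inhibitory receptors showed as many falls as rises, 7 and 7 of 17 subunits. *Gabra2*, an α subunit of the young brain, was at 7904, 7787, 8022 and 7807 normalized counts at PWK 1 and 7219, 7472, 6999.8 and 6904 at PWK 7, a log2 fold change of -0.14 that was called but lost its call when all 64 libraries were fitted together. *Gabrd*, the δ subunit of extrasynaptic receptors in granule cells, was at 257, 178, 233 and 173 normalized counts at PWK 1 and 624, 655, 653 and 672 at PWK 7 (log2 fold change 1.65, SE 0.12, limma, adjusted p = 4.68e-07), and *Gabra4* rose by 0.88. *Gabra3* (-0.81) and *Gabrg3* (-0.80) fell. *Glra2*, the glycine receptor subunit of immature neurons, fell from 1196, 1147, 1093 and 1301 to 213, 253, 261 and 241. *Gabrb2* (0.02) was not called.

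Chloride transport sets whether GABA excites or inhibits. *Slc12a5* encodes KCC2, which carries chloride out of neurons, and was at 9346, 8291, 9334 and 9285 normalized counts at PWK 1 and 13333, 14199, 13995 and 13467 at PWK 7 (log2 fold change 0.60, SE 0.05, limma, adjusted p = 5.34e-07). *Slc12a2* encodes the importer NKCC1, which young neurons are known for, and it rose as well, to 4131, 2900.0, 2772 and 4505 from 1953, 2058, 1798 and 1693 (log2 fold change 0.90, SE 0.14, limma, adjusted p = 0.000211). *Slc12a2* is also expressed by oligodendrocytes and choroid plexus, and replicates 1 and 4 of PWK 7, the highest in *Ttr*, were the highest in *Slc12a2*. With the choroid plexus sum as a covariate its log2 fold change was 0.89, still called, but this sum overlapped between the ages and could shift it little. The part of choroid plexus and of other cell types was not tested. In all, 6 of 10 chloride transport genes rose, *Wnk1*, *Stk39* and *Clcn2* among them, of which *Stk39* was not called without PWK 1 replicate 4 or without PWK 7 replicate 1 or 4, and *Slc12a7* (-0.51) and *Slc4a3* (-0.31) fell, the former not called with all 64 libraries in 1 fit. *Clcn2*, a chloride channel of glia and neurons, had the largest rise (0.98). *Wnk2* (-0.07) and *Wnk3* (-0.07) were not called.

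Presynaptic and postsynaptic genes rose modestly. Of 32 genes of synaptic vesicles and release, 21 rose and 8 fell, with a median of 0.27. *Vamp1* was at 719.6, 730.1, 795 and 723 normalized counts at PWK 1 and 3244, 3387, 3555 and 3401 at PWK 7 (log2 fold change 2.19, SE 0.05, limma, adjusted p = 9.26e-11), and *Syt2* (1.23) and *Snap25* (1.06) rose too. *Slc17a6*, the vesicular glutamate transporter VGLUT2 of developing and subcortical neurons, was at 2281, 1859, 2292 and 2247 normalized counts at PWK 1 and 357, 273, 758 and 629 at PWK 7 (log2 fold change -2.22, SE 0.26, limma, adjusted p = 2.21e-05). It is also a thalamic marker, and the summed thalamic markers, this gene included, went from between 6062 and 6813 to between 3321 and 4446. Of the 8 thalamic markers 4 fell, *Slc17a6* and *Calb2* among them, and 2 rose, and the part of thalamic tissue was not tested. *Syn3* (-1.48) and *Unc13c* (-1.08) fell. Of 26 postsynaptic scaffolds and kinases, 16 rose and 4 fell, with the same median of 0.27. *Camk2a*, the kinase of synaptic plasticity, was at 54131, 54418, 58078 and 53137 normalized counts at PWK 1 and 130590.0, 146379, 117694 and 124214 at PWK 7 (log2 fold change 1.24, SE 0.06, limma, adjusted p = 2.18e-08), and *Ddn*, dendrin, rose by 2.17 on the log2 scale. *Ppp1r1b* (2.12) and *Homer3* (1.33) rose, *Camk4* (-1.28) and *Dlg2* (-0.36) fell, and *Homer1* (-0.0048) was not called.

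Voltage-gated sodium and potassium channels, which set how neurons fire, rose in 27 of 33 cases and fell in 2, with a median of 0.77. *Scn4b*, a sodium channel β subunit of fast-spiking neurons, was at 67.2, 32.1, 73.5 and 60.6 normalized counts at PWK 1 and 607, 521, 757 and 869 at PWK 7 (log2 fold change 3.58, SE 0.24, limma, adjusted p = 2.35e-07). *Scn2b* rose by 1.60 and *Kcnab2*, an auxiliary subunit of Kv1 channels, by 1.82. The 2 falls were *Scn3a*, the sodium channel of fetal neurons, from 3116, 3763, 3445 and 3574 to 2239, 2252, 2244 and 2233 (log2 fold change -0.63, SE 0.05, limma, adjusted p = 1.5e-06), and *Kcnd2* (-0.11), whose call was lost without PWK 7 replicate 1 and with all 64 libraries in 1 fit. *Kcnq3* was at 8453 ± 382 normalized counts at PWK 1 and 8429.5 ± 157 at PWK 7 and was among the 5 least changed of the abundant protein-coding genes, with *Myl6*, *Plppr4*, *Ogdh* and *Cbarp*.

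Dentate granule cell genes rose in 15 of 20 cases and fell in 1, with a median of 1.15. *Dsp*, desmoplakin, which in brain is known from granule cells, was at 341, 361, 376 and 316 normalized counts at PWK 1 and 2768, 2614, 1941 and 2686 at PWK 7 (log2 fold change 2.83, SE 0.11, limma, adjusted p = 2.47e-09), with replicate 3 the lowest of PWK 7 and still well above all of PWK 1. *C1ql2*, a complement-like synaptic organizer of mossy fibres, was at 206, 168, 202 and 152 normalized counts at PWK 1 and 1487, 1560.4, 1227 and 1331 at PWK 7 (log2 fold change 2.94, SE 0.11, limma, adjusted p = 2.54e-09), and *Plk5* rose by 3.02. *Prox1*, the transcription factor that sets granule cell identity, was at 4676, 5545, 5012 and 4628 normalized counts at PWK 1 and 4917, 4594, 3857 and 4481 at PWK 7 and was not called (log2 fold change -0.16, SE 0.08, limma, adjusted p = 0.101). *Sema5b* fell by 0.73 and *Npnt* (-0.07) was not called. Genes of CA pyramidal neurons rose in 14 of 20 cases and fell in 5, with a median of 0.35. *Rgs14*, a CA2 signalling protein, was at 619, 573, 665 and 544 normalized counts at PWK 1 and 2812, 3129, 2317 and 2929.7 at PWK 7, and *Spink8* (2.25) and *Iyd* (0.93) rose with it. *Ccn3* (-0.97) and *Cacng5* (-0.52) fell, the calls of *Iyd* and *Cacng5* were lost with all 64 libraries in 1 fit, and *Cpne4* (-0.10) was not called.

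Interneuron genes went both ways, with 8 of 24 higher and 12 lower. *Pvalb*, the calcium buffer of fast-spiking basket cells, was at 22.2, 6.38, 16.4 and 11.1 normalized counts at PWK 1 and 469, 469.8, 564 and 497 at PWK 7 (log2 fold change 5.18, SE 0.29, limma, adjusted p = 4.99e-08). *Lamp5*, of neurogliaform cells, rose by 1.31 and *Htr3a* by 0.90. *Calb2* (calretinin, -1.27) and *Tac1* (-1.11) fell with *Reln*, and *Sst*, somatostatin, was at 2839, 2679, 2962 and 2928 normalized counts at PWK 1 and 2475, 3169, 3057 and 2517 at PWK 7 and was not called.

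Astrocyte genes rose in 16 of 24 cases and fell in 5, with a median of 0.39. *S100b*, a calcium-binding protein of mature astrocytes, was at 673, 535, 612 and 516 normalized counts at PWK 1 and 1994, 2098, 2118 and 2070.1 at PWK 7, and *Itih3* (2.41) and the gap junction gene *Gjb6* (1.78) rose too. *Gfap*, the intermediate filament of astrocytes, was at 7872, 8312, 8534 and 8021 normalized counts at PWK 1 and 8947, 9823, 8763 and 9129 at PWK 7, a rise of 0.16 on the log2 scale that was lost when all 64 libraries were fitted together. *Aqp4*, the water channel of astrocyte endfeet, was at 8273, 8194, 8729 and 7848 normalized counts at PWK 1 and 4417, 4093, 4311 and 4487 at PWK 7 (log2 fold change -0.93, SE 0.04, limma, adjusted p = 1.17e-08), lower at PWK 7, and *Slc6a11*, a GABA transporter, fell by 0.73. *Mlc1* (-0.03) was not called.

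Microglial genes rose in 18 of 26 cases and fell in 2, with a median of 0.50. *Tmem119*, a marker of homeostatic microglia, was at 273, 251, 269.9 and 206 normalized counts at PWK 1 and 548, 620.1, 543 and 540.1 at PWK 7 (log2 fold change 1.18, SE 0.10, limma, adjusted p = 1.3e-06). *Ctss*, a lysosomal protease, rose by 1.65 and *Gpnmb* by 2.79. The 2 falls were *Lpl*, lipoprotein lipase (-2.38), and *Igf1* (-1.80), both known from microglia of the neonatal white matter and from other cells, and 4 fell under total-sum scaling or without PWK 1 replicate 4. *Lpl* was at 8270.0, 9626, 8641 and 9113 normalized counts at PWK 1 and 1816, 1742, 1527 and 1773 at PWK 7. *Sall1* (-0.17) was not called. Genes of antigen presentation and the interferon response rose in 12 of 20 cases and fell in none, with a median of 0.69, and with a filter at a mean of 50 rose in 7 of 13. *C4b*, complement C4, was at 281, 383, 359 and 259.7 normalized counts at PWK 1 and 1214, 1122, 1273 and 1187 at PWK 7, and *Ifit3* (1.77) and *Ifit1* (1.69) rose with it, while *H2-D1* (-0.07) was not called.

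Vessel genes fell in 16 of 24 cases and rose in 6, with a median of -0.60. *Kdr*, the VEGF receptor of growing endothelium, was at 1917, 2049.8, 1782 and 1718 normalized counts at PWK 1 and 587, 466, 559.7 and 541 at PWK 7 (log2 fold change -1.79, SE 0.08, limma, adjusted p = 8e-09), and *Cldn5* (-1.79) and *Cdh5* (-1.33), both of endothelial junctions, fell with it. Among the rises, *Slco1a4*, an organic anion transporter of the blood-brain barrier, was at 517, 388, 573 and 388 normalized counts at PWK 1 and 1906, 1720.3, 1760.1 and 1708 at PWK 7, and *Slc2a1*, the glucose transporter GLUT1, rose by 1.00. *Ly6c1* rose by 1.62, and *Flt1* had a rise of 0.19 that was lost under total-sum scaling and with all 64 libraries in 1 fit. Haemoglobin chains, *Alas2* and *Slc4a1* fell in all 6 cases, with a median of -1.50. *Hbb-bs* was at 5762, 5495, 11586 and 3255 normalized counts at PWK 1 and 1840.1, 1509.8, 2537 and 2620.5 at PWK 7, and *Hba-a1* (-1.41), *Hba-a2* (-1.45) and *Hbb-bt* (-1.53) fell alike, pairs of near copies whose split is uncertain. Blood in the tissue was not measured separately, and its part in the vessel values was not tested.

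Genes of growth control mostly fell. Of 16 imprinted genes, 11 fell and 2 rose, with a median of -0.69. *H19*, the imprinted non-coding RNA next to *Igf2*, was at 261, 629, 369 and 292 normalized counts at PWK 1 and 5.85, 4.29, 2.8 and 5.06 at PWK 7 (log2 fold change -6.09, SE 0.29, limma, adjusted p = 1.33e-08). The growth factor gene *Igf2* itself was at 6759.8, 9756, 7485 and 6094 normalized counts at PWK 1 and 5857, 3384, 2877 and 6681 at PWK 7, groups that overlapped, and its call (log2 fold change -0.75) was lost without PWK 1 replicate 2, without PWK 7 replicate 2 and with a robust prior. *Igf2* is made in choroid plexus and meninges. With the choroid plexus sum as a covariate its log2 fold change was -0.76, but this sum overlapped between the ages and could shift it little. The part of choroid plexus and meninges was not tested. *Zim1* (-2.10) and *Asb4* (-1.91) fell, *Dlk1* rose from 33.4, 51.2, 31.4 and 34.2 to 133, 161, 234 and 57.9, and *Peg3* (0.19) rose but was lost under total-sum scaling. In the insulin-like growth factor system 10 of 15 genes fell and 3 rose. The falls numbered 6 with all 64 libraries in 1 fit and 7 without replicate 2 of either age, and 7 of 12 with a filter at a mean of 50, where the median was -0.20 against -0.47. The fetal RNA-binding proteins *Igf2bp3* (-3.87) and *Igf2bp1* (-3.49) were at 52.3 ± 9.74 and 25.9 ± 10.3 normalized counts at PWK 1 and at 2.99 ± 1.94 and 2.01 ± 2.89 at PWK 7, and *Igf2bp2* fell by 2.04. *Igfbp6* (1.00), *Hmga1* (0.27) and *Igf1r* (0.18) rose, and *Igf2r* (0.02) was not called.

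Genes of cholesterol synthesis, a main lipid of myelin, fell. Of 25 genes of the pathway and its handling, 20 fell and 2 rose, with a median of -0.77. *Hmgcs1*, which makes the precursor of mevalonate, was at 21843, 21694, 21609.8 and 23259 normalized counts at PWK 1 and 6136, 5763, 6992 and 6670.2 at PWK 7 (log2 fold change -1.79, SE 0.06, limma, adjusted p = 8.96e-10). *Sqle*, squalene epoxidase, fell by 1.68 on the log2 scale. The 2 that rose do not synthesize cholesterol. *Cyp46a1*, which hydroxylates it for export from neurons, was at 1967, 1649.6, 1834 and 1806 normalized counts at PWK 1 and 3489, 3839, 3838 and 3299 at PWK 7, and *Apoe*, its carrier between cells, rose by 0.41.

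Among genes of energy metabolism, those of glycolysis changed more than those of oxidative phosphorylation. Glycolysis and creatine genes rose in 16 of 22 cases and fell in 5, with a median of 0.45, led by *Pdk2* (1.45), *Aldoc* (1.32) and the neuronal enolase *Eno2* (1.15). *Pfkp* (-1.06), *Ldha* (-0.76) and *Hk2* (-0.64, not called without PWK 1 replicate 3) fell, and *Hk1* (0.11) was not called. Of 40 nuclear genes of oxidative phosphorylation, 16 rose and 7 fell, with a median of 0.09, and under total-sum scaling 10 rose and 11 fell, with a median of 0.03. The values ranged from *Sdhd* at -0.33 to *Sdha* at 0.63, and *Cox7a2* (-0.0095) was not called. Cytosolic ribosomal protein genes fell in 25 of 39 cases and rose in 3, with a median of -0.25, led by *Rplp0* at 9392, 9687, 9419.5 and 9882 normalized counts at PWK 1 and 4539.8, 5064, 4277 and 4512 at PWK 7. *Rpl5* (-0.86) and *Rps2* (-0.86) fell, *Rpl37* (0.30), *Rps15* (0.19) and *Rpl3* (0.18) rose, and *Rpl30* (0.01) was not called. Such genes have many pseudogene copies that may take reads.

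Regulators of RNA and chromatin mostly fell. Of 26 splicing and RNA-binding regulators, 17 fell and 6 rose. *Mbnl2*, which promotes adult splice forms, was at 3688, 3317, 3494 and 3214 normalized counts at PWK 1 and 7939.7, 7894, 8167 and 8496 at PWK 7 (log2 fold change 1.25, SE 0.05, limma, adjusted p = 2.93e-09), and *Mbnl1* (0.67) and *Rbfox1* (0.59) rose. *Elavl4* (-1.03), *Elavl3* (-0.62) and *Srsf3* (-0.58) fell, and *Celf4* (0.04) was not called. Of 22 genes of DNA methylation and chromatin, 14 fell and 1 rose, with a median of -0.50. *Dnmt3a*, the de novo methyltransferase of neurons, was at 11861, 11584, 11316 and 11808 normalized counts at PWK 1 and 3351, 3076, 3302 and 3254 at PWK 7 (log2 fold change -1.84, SE 0.04, limma, adjusted p = 6e-11). *Hmgb2* (-2.53) and *Uhrf1* (-2.31), both high in cycling cells, fell, *Hdac1* rose by 0.21 and *H1f0* (-0.01) was not called.

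Clock output genes rose in 13 of 16 cases and fell in 1, with a median of 1.08. *Dbp*, a transcription factor under direct control of the clock, was at 589, 496, 471 and 478 normalized counts at PWK 1 and 2213, 2097, 2565 and 2475 at PWK 7 (log2 fold change 2.20, SE 0.09, limma, adjusted p = 3.07e-09), and *Ciart* (1.98) and *Bhlhe41* (1.80) rose. *Arntl*, the core activator BMAL1, had a fall of 0.16 on the log2 scale that was lost in 8 of the 19 alternative fits, and *Cry1* (-0.04) was not called. Per the labels, brains were taken in the same afternoon hours of the light phase at both ages, so these are values at 1 phase of the day. Immediate early genes, which neurons transcribe after activity, rose in 10 of 20 cases and fell in 5, and with all 64 libraries in 1 fit rose in 5 and fell in 2. *Arc*, of dendritic synapses, was at 701, 517, 675 and 541 normalized counts at PWK 1 and 2377, 2174, 2349 and 3158 at PWK 7 (log2 fold change 2.04, SE 0.13, limma, adjusted p = 1.05e-07), and *Fosb* (1.71) and *Junb* (1.26) rose. *Egr2* (-1.44, a call lost with all 64 libraries in 1 fit), *Nr4a3* (-0.95) and *Nr4a2* (-0.88) fell, and *Jund* (-0.00018) was not called. Metallothioneins and zinc transporters rose in 6 of 8 cases. *Mt1* was at 700.3, 702, 820.4 and 819.9 normalized counts at PWK 1 and 2926, 3533, 2961 and 3083 at PWK 7, *Mt2* (1.92) and *Mt3* (0.81) rose with it, and *Slc30a3*, which loads zinc into synaptic vesicles of mossy fibres, was at 1109, 816, 1084 and 987 normalized counts at PWK 1 and 1810.3, 2057, 1703 and 1729 at PWK 7. *Slc30a1* (0.26) and *Slc39a14* (0.67) rose, *Slc30a10* (-0.90) fell and *Slc39a4* (0.75) was not called.

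The gene edited in this study's model was itself age dependent in WT tissue. *Cyfip2* (chromosome 11, 46193850 to 46312859, minus strand), a subunit of the WAVE complex that controls actin branching, was at 15159.6, 14909, 15227 and 15527 normalized counts at PWK 1 and 30057, 32581, 30104 and 29337 at PWK 7 (log2 fold change 1.00, SE 0.04, limma, adjusted p = 3.08e-09). The libraries of the ages did not overlap. Its relative *Cyfip1* was at 3332, 3652, 3696 and 3458 normalized counts at PWK 1 and 4335, 4353, 4016 and 4272 at PWK 7 (log2 fold change 0.26, SE 0.05, limma, adjusted p = 0.000365).

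Most hippocampal changes were shared with WT frontal cortex, where 11992 of 18378 genes (65.3%) were called. Of 11263 hippocampal DEGs tested in both regions, 10347 (91.9%) had the same direction in cortex, and 9165 were called in both, which is 81.4% of the hippocampal and 76.5% of the cortical DEGs. Across 18353 genes the log2 fold changes of the regions had a Pearson r of 0.790 and a Spearman rho of 0.778, given as a description, since the regions came from mice of the same groups and genes are not independent. The difference of the age effects, tested as an interaction in 16 libraries, was called for 3923 of 18428 genes (21.3%), with the hippocampal change above the cortical one for 2122 (11.5%) and below for 1801 (9.77%). The share above, 54.1%, fell to 41.0% under total-sum scaling, so the balance of the directions depends on the scaling. Opposite directions in the regions were seen for 1207 of these genes, and 359 of them were DEGs in both. Among the genes of the 3923 whose fold changes had the same sign in both regions, the change was larger in size in cortex for 1881 genes and in hippocampus for 815.

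**Figure D4:**
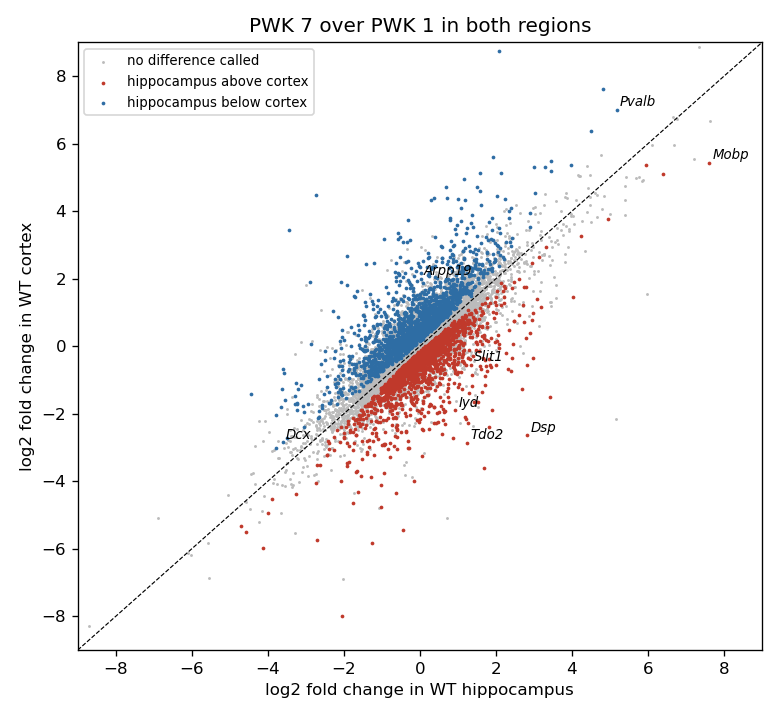
Log2 fold change between PWK 7 and PWK 1 in WT hippocampus (horizontal axis) against that in WT cortex (vertical axis) for the 18353 genes tested in both. The 3923 genes whose age effect differed between the regions are coloured where tested in both, the rest are grey, and the dashed line marks equal changes. *Dsp*, *Tdo2*, *Iyd* and *Slit1* lie at the lower right, with rises in hippocampus and falls in cortex.

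Of the granule cell genes, 16 of 20 differed between the regions, 14 of them with the hippocampal change above the cortical one. *Dsp* was at 19.2, 55.9, 101 and 71.5 normalized counts in cortex at PWK 1 and at 10.5, 12.3, 7.74 and 3.2 at PWK 7, a fall where hippocampus showed a rise (difference of the log2 fold changes 5.47, SE 0.54, limma, adjusted p = 1.36e-06). *Slit1* had a log2 fold change of -0.55 in cortex (difference 1.88, limma, adjusted p = 4.26e-09). *Homer3* fell in cortex (-0.39) and rose in hippocampus (difference 1.72, limma, adjusted p = 5.02e-06). By the naming rule, the interactions with the smallest p among genes whose signed hippocampal change was above the cortical one were *Doc2b*, a calcium sensor of release (-0.28 in hippocampus, not called with all 64 libraries in 1 fit, and -3.00 in cortex), *Tunar* (-0.07 and -2.20) and *Mc4r*, the melanocortin 4 receptor (1.20 and -2.16). In the other direction these were *C130074G19Rik* (-0.58 and 2.16), *Arpp19* (0.02 and 2.01) and *Hunk* (-0.07 and 1.39). *Arpp19*, a phosphatase inhibitor under protein kinase A, was at 2408, 2313, 2541 and 2716 normalized counts at PWK 1 and 2499, 2247, 2895 and 2531 at PWK 7 in hippocampus, and at 2948, 2702, 3089.8 and 3278 and 12334, 10630.2, 12507 and 12809 in cortex.

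Interneuron and vessel genes lay below cortex wherever they differed, with 10 of 24 and 14 of 24 called. *Pvalb* rose by 7.01 in cortex on the log2 scale against 5.18 (difference -1.83, limma, adjusted p = 0.00547). The NMDA receptor subunit gene *Grin2b* had a log2 fold change of -0.48 in cortex (difference 0.52, limma, adjusted p = 0.000104). Myelin genes had medians of 3.81 in hippocampus and 3.42 in cortex, and the difference was called for 4 of 26, *Mobp* (2.17) and *Ermn* (0.58) among them. The hippocampal changes of *Slc12a5* and *Slc12a2* were not told apart from cortex (differences -0.13, SE 0.06, and 0.16, SE 0.17).

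The age effect in KI hippocampus was close to that in WT. There, 11299 of 18408 genes (61.4%) were called, and of 11283 WT DEGs tested in both genotypes 11145 (98.8%) had the same direction. Called in both were 9639 genes, 85.4% of the WT and 85.3% of the KI DEGs, with r of 0.903 and rho of 0.898 across 18399 genes as a description. The interaction of age and genotype was called for 2 of 18409 genes (0.0109%), with 1177 at an unadjusted p under 0.05 (6.39%). Both fell outside the naming rule and were singled out after their values were seen. *Zxda* was at 59.5, 30.2, 26.2 and 55.7 normalized counts at PWK 1 and 48.7, 53.6, 36.9 and 20.2 at PWK 7 in WT, and in KI at 17.2, 69.7, 55.2 and 39.4 at PWK 1 and listed at 0, 0, 0 and 0 at PWK 7. *Lenep* was listed at 0, 0, 0 and 0 normalized counts at PWK 1 and 60.4, 72.2, 79.6 and 43 at PWK 7 in WT and at 45.7, 9.2, 10.9 and 22.9 and 89.4, 87.1, 44 and 83.7 in KI. Both are low genes with a group at 0, for which no fold change is given. By the rule, the smallest p among more abundant genes belonged to *Vps26c*, *Slc12a7* and *Ddr2* with a KI change above the WT change, and to *Has3*, *Bdnf* and *Fam84a* with one below. *Bdnf*, the neurotrophin, was at 843, 897, 926 and 850.4 normalized counts at PWK 1 and 1401, 1597, 1304 and 1469 at PWK 7 in WT and at 787, 806, 876 and 884 and 988, 1082, 1063 and 1045 in KI, and the difference of -0.39 (SE 0.09) did not pass the test (limma, adjusted p = 0.584). *Has3* had a difference of -0.72 (SE 0.13, limma, adjusted p = 0.183).

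**Figure D5:**
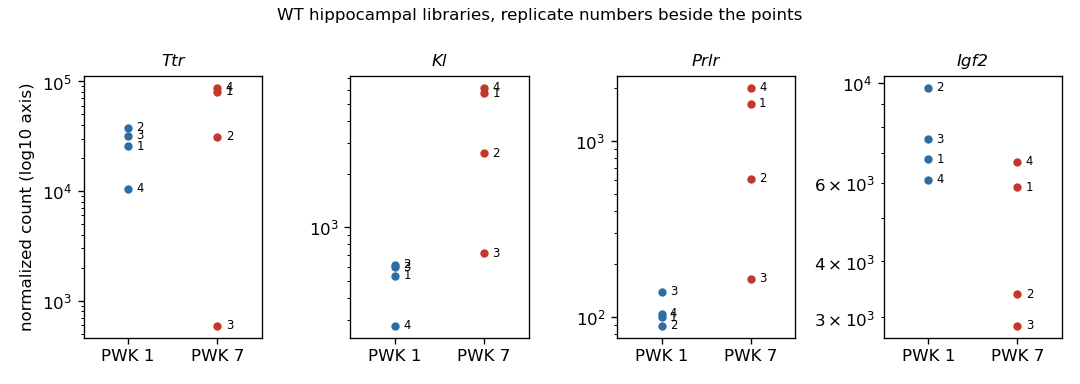
Normalized counts on a log10 axis of *Ttr*, *Kl*, *Prlr* and *Igf2* in each of the 4 WT hippocampal libraries of PWK 1 and of PWK 7, labelled by replicate number. Replicate 3 of PWK 7 has 593 normalized counts of *Ttr*, against 31323 to 87362 in the other libraries of that age.

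At later ages most of these genes stayed nearer to their PWK 7 level. Of the 3130 DEGs of at least 2-fold, 2960 (94.6%) had a mean at PWK 14 nearer to PWK 7 than to PWK 1 on the log2 scale, and 2962 (94.6%) at PWK 28. The libraries of PWK 1 and 7 that chose these genes also set the distances, so the shares are a description. *Mobp* was at 20489 ± 2129 at PWK 14 and 21349 ± 1755 at PWK 28, *Dcx* at 835 ± 89.3 and 778 ± 64.8, *Pvalb* at 474 ± 34.8 and 446 ± 45.1, and *Grin2a* at 11347 ± 813 and 13223 ± 806. *Opalin* was at 444 ± 38.1 and 354 ± 59.3, against 733 ± 81.8 at PWK 7.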

How the data were processed

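Bulk RNA-seq libraries of hippocampus and frontal cortex were grouped by the labels. Salmon estimates against GRCm38 were passed through tximport to DESeq2 by the authors. The deposited signal is thus a normalized estimated count per gene, put on a common scale over all 64 libraries. The submitters' processing notes name Salmon 0.11.2, R 3.6.0 and DESeq2 1.19.11, and the study's methods name other versions, so which was used is uncertain. The labels name a stranded mRNA kit and the methods a stranded total RNA kit. Raw counts and depth per library were not used here. The normalized totals of the 8 libraries were 29.2 to 31.3 M, and 102 to 160 genes were listed at 0 in a library.

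A count model had been planned. Since the values are normalized, limma 3.58.1 (limma-trend, R 4.3.3) was used, as the same plan provided, on log2(value + 1) with genes of a mean of at least 1 in the libraries of each fit. This scale understates the change of low genes. A gene counted as a DEG when its p, adjusted by Benjamini and Hochberg, was under 0.05. The procedure was tested on simulated data. Each library is labelled as a replicate of its group, and p-values measure the spread between these samples. Interactions of age with region or genotype were fitted in 16 libraries.

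The comparison, the gene lists and the markers were chosen with earlier results of these data known. Genes were named by a rule: the 10 largest rises and falls among called protein-coding genes with non-overlapping libraries and a mean of at least 100 in the higher group, up to 3 rises and 3 falls per list (every member in lists of up to 10), the least changed expressed member of each list, 3 genes per direction of each interaction, a fixed list, and the 5 abundant genes (mean of at least 5000) that changed least. *Ttr*, *Kl*, *Prlr*, *Cdk1*, *Tdo2*, *Ddx3y*, *Zxda* and *Lenep* were named after their values were seen. A few genes that the rule names are not reported here. Gene positions came from GENCODE on GRCm38 by gene ID (18420 of 18432 matched), and promoters from RefSeq. Alternatives covered scaling, pseudocount, filter, prior, weights, the libraries fitted, the replicate block, each replicate left out and, added after seeing the data, a choroid plexus covariate.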

Additional observations from a re-analysis of the deposited data

Results flagged for a closer look

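In 40 of the 527 groups of 4 WT hippocampal libraries that stand behind the 264 genes of the text (*Ddx3y* left out), 1 library lay far from the other 3, with a gap above Dixon's critical value for groups of 4. Chance gives such a gap in about 1 in 20 groups. The values are normalized counts of the library that stood apart. Replicate 2 of PWK 1 stood above the others for *Col1a2* (4059), *Dlk1* (51.2), *Flt1* (1528), *Has2* (67.7) and *Trp73* (288), and below them for *Ccn3* (4858), *Gria3* (3673), *Grin3a* (4789), *Slc12a5* (8291), *Slc17a6* (1859) and *Snap25* (21717). Replicate 3 of PWK 1 stood above the others for *Nkx6-2* (3.15) and *Vamp1* (795), and below them for *Ube2c* (101). Replicate 4 of PWK 1 stood above the others for *Hmgcs1* (23259), *Rpl3* (10524), *Tmem125* (5.04), *Tuba1a* (151796) and *Tubb3* (30784), and below them for *Ppp1r1b* (278). Replicate 1 of PWK 7 stood below the others for *Mbnl1* (2291). Replicate 2 of PWK 7 stood above the others for *Bcan* (8511), *Bmp4* (178), *Grin1* (18948), *Hk1* (13217), *Kcnab2* (21105), *Lfng* (558), *Myl6* (5834), *Ncan* (7858), *Tmem119* (620.1) and *Tubb2a* (23964), and below them for *Mal* (7356) and *Mog* (1447). Replicate 3 of PWK 7 stood below the others for *Aplnr* (8.73), *Epha7* (5231), *Iyd* (116) and *Plk5* (363). Replicate 4 of PWK 7 stood above the others for *Gm14434* (133), and below them for *Slc6a11* (4541) and *Zim1* (152).

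The age effect differed between WT hippocampus and cortex (interaction in limma, adjusted p under 0.05) for 113 of the 264 genes of the text. Over all genes tested it differed for 3923 of 18428 (21.3%). Some of the 264 were named for a small p of this interaction or for a large change, so the shares are not comparable. Values are the difference of the log2 fold changes, hippocampus minus cortex. Among genes of neuron types, axon guidance and the cytoskeleton, the hippocampal change lay above the cortical one for *Dsp* (5.47), *Tdo2* (4.09), *Iyd* (2.82), *C1ql2* (2.16), *Slit1* (1.88), *Cd24a* (1.84), *Tuba1c* (1.76), *Tubb2b* (1.14), *Npnt* (1.13), *Epha7* (1.00), *Dpysl3* (0.94), *Tubb2a* (0.94), *Bcl11b* (0.88), *Map1b* (0.57), *Cpne4* (0.47), *Tuba1a* (0.38), *Neurod2* (0.38) and *Tuba1b* (0.25). It lay below for *Pvalb* (-1.83), *Lamp5* (-1.51), *Plxnd1* (-1.38), *Tac1* (-1.16), *Sema3c* (-0.94), *Tuba8* (-0.87), *Dcx* (-0.76), *Htr3a* (-0.68), *Sst* (-0.58), *Plxnb1* (-0.47) and *Prox1* (-0.42). Among receptors, transporters, synaptic genes and ion channels, the hippocampal change lay above the cortical one for *Homer3* (1.72), *Shisa6* (1.71), *Cacng5* (0.99), *Scn3a* (0.62), *Gria1* (0.60), *Kcnq3* (0.59), *Grin2b* (0.52), *Dlg2* (0.46), *Shisa9* (0.39), *Grin2a* (0.38), *Grin2d* (0.36) and *Gabra4* (0.26). It lay below for *Grin2c* (-1.75), *Gsg1l* (-1.66), *Gabra3* (-1.10), *Nrn1* (-0.93), *Camk4* (-0.78), *Unc13c* (-0.72), *Syn3* (-0.61), *Vamp1* (-0.46), *Camk2a* (-0.44), *Snap25* (-0.39) and *Homer1* (-0.22). Among progenitors, glia, vessels and matrix, the hippocampal change lay above the cortical one for *Gpnmb* (2.54), *Mobp* (2.17), *Has3* (1.92), *C4b* (0.91), *Hes1* (0.73), *Itih3* (0.69), *Ermn* (0.58), *Adamts4* (0.57), *Lpl* (0.48), *Slc6a11* (0.45) and *Ccne1* (0.37). It lay below for *Has2* (-2.18), *Hapln4* (-1.86), *Hopx* (-1.02), *Prom1* (-0.92), *Ifit3* (-0.82), *Col1a2* (-0.82), *Ncan* (-0.80), *S100b* (-0.59), *Col25a1* (-0.58), *Ly6c1* (-0.58), *Cdh5* (-0.57), *Aldoc* (-0.55), *Slco1a4* (-0.54), *Mlc1* (-0.52), *Slc2a1* (-0.41), *Cldn5* (-0.40), *Apoe* (-0.38), *Flt1* (-0.38) and *Pdgfra* (-0.24). Among metabolism, growth, gene regulation, activity and the clock, the hippocampal change lay above the cortical one for *Dlk1* (1.65), *Nr4a3* (0.65), *Junb* (0.60), *Rbfox1* (0.48), *Hdac1* (0.44), *Cry1* (0.38), *Rps2* (0.25), *Rpl3* (0.22), *Srsf3* (0.22) and *Elavl3* (0.21). It lay below for *Igfbp6* (-3.36), *Igf2bp2* (-1.45), *Mt1* (-0.96), *Mt2* (-0.80), *Ciart* (-0.61), *Dbp* (-0.39), *Mt3* (-0.38), *Jund* (-0.28), *Peg3* (-0.27) and *H1f0* (-0.25). Among genes on none of the lists, the hippocampal change lay above the cortical one for *Prlr* (3.37), *Mc4r* (3.36), *Doc2b* (2.72), *Tunar* (2.12), *Plppr4* (0.68) and *Trim67* (0.63). It lay below for *C130074G19Rik* (-2.74), *Arpp19* (-1.98), *Hunk* (-1.46), *Ddr2* (-0.48) and *Vps26c* (-0.38).

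Between KI and WT hippocampus the age effect differed for *Lenep* (-4.03, KI minus WT) and *Zxda* (-5.26, KI minus WT). These are the 2 low genes with a group listed at 0 that are described above, so the size of either difference depends on the pseudocount, and with a pseudocount of 10 neither was called.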

How the results depend on the processing

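Limits were few for the age effect itself. In WT hippocampus the genes higher at PWK 7 numbered 5333 to 5568 when 1 replicate was left out and the genes lower 5246 to 5544, against 5684 and 5600 with all libraries. The DEGs of at least 2-fold numbered 3017 to 3243 without 1 replicate, 1862 with a filter at a mean of 50, where 14006 genes were tested, and 2229 with a pseudocount of 10. Total-sum scaling gave 5063 higher and 6237 lower genes and moved the median of all genes to -0.04. The interaction with region was called for 3430 to 4343 genes without 1 replicate and 3201 to 4600 in the other fits. The interaction with genotype was called for 2 to 5 genes without 1 replicate, the 5 without PWK 1 WT replicate 2, and for 0 with a pseudocount of 10, with the filter at a mean of 50 and with all 64 libraries in 1 fit. The KI age effect was called for 10525 to 11150 genes without 1 replicate. With the choroid plexus covariate it was called for 9434, against 11299 in the main fit. Same-numbered libraries of PWK 1 and 7 did not deviate together (correlations from -0.289 to 0.109), and their mice were of different ages, so the numbers do not pair. Hippocampal and cortical libraries of 1 number deviated together at PWK 1 (correlations 0.102 to 0.256, each best with its own number) and not at PWK 7 (-0.061 to 0.058), and the sources used here do not say whether they share a mouse. With the replicate block, 5404 genes were higher and 5399 lower, and the interactions with region and genotype were called for 3876 and 2 genes, 3557 of the 3876 among the 3923 called without it. Of 235 named genes that were called, none reversed and 18 lost their call in at least 1 of 19 alternatives, most of them (14) when all 64 libraries were fitted together. Leaving out 1 library raised limma's adjusted p above the threshold for *Arntl* (0.051 to 0.104, for 7 of the 8 libraries), *Neurod2* (0.066 to 0.108, for 6), *Hes1* (0.0507 to 0.0795, PWK 1 replicates 2 and 4 and PWK 7 replicates 1 and 2), *Ebf3* (0.0613 to 0.0964, PWK 1 replicates 2 and 4 and PWK 7 replicates 2 and 3), *Stk39* (0.053 to 0.0599, PWK 1 replicate 4 and PWK 7 replicates 1 and 4), *Igf2* (0.0641 and 0.0652, replicate 2 of either age), *Hk2* (0.0569, PWK 1 replicate 3) and *Kcnd2* (0.0504, PWK 7 replicate 1). The causes were not tested. Depth could not be read from normalized values, so for genes with values near 0 the precision rests on 4 libraries per age.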

Other observations

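Levels of WT hippocampus at PWK 14 and PWK 28 belong to no comparison above and are given as means ± SD (n = 4 per age), with no test. Among genes of young and dividing cells, *Mki67* and *Dpysl3* had lower means at each later age, and *Sox11* and *Fabp7* did not. *Mki67* was at 80.1 ± 14.4 normalized counts at PWK 7, 60.9 ± 5.7 at PWK 14 and 47.1 ± 6.8 at PWK 28, *Dpysl3* at 2141 ± 169, 1816 ± 79.6 and 1594 ± 41.2, and *Sox11* at 554 ± 15.3, 579.9 ± 40.8 and 558 ± 52.2. *Fabp7* was at 393 ± 29.2, 263 ± 33.7 and 542 ± 14.2.

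Glial and immune genes took several courses. *Gfap*, which differed little between PWK 1 and 7, was at 9166 ± 463, 8637 ± 774 and 9341 ± 446. *C4b* was at 1199 ± 62.4, 1676 ± 160.0 and 2201 ± 106, and *Gpnmb* at 165 ± 32.4, 143 ± 23.1 and 133 ± 24.6. The precursor gene *Pdgfra* was at 2305 ± 136, 2035 ± 125 and 2341 ± 122. *Dbp*, the clock output gene, was at 2338 ± 219, 1469 ± 56.8 and 1359 ± 43.4.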
